A study of Mus musculus with 28 samples.

Results

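Wide stretches of H3.3 chromatin without an H3K27ac region were examined in mouse embryonic stem cells. The members are the H3.3 consensus regions on chromosomes 1 to 19 that measured 1500 bp or more and shared no base with an H3K27ac consensus region. They number 442, of 5446 H3.3 regions in all and of 5377 on these chromosomes. They were chosen by measured values, the width of the H3.3 region and the absence of H3K27ac, so both are given below as a description. The remaining H3.3 regions on the same chromosomes served for comparison and fell into 3 classes, with 61 wide regions touching H3K27ac, 2362 short regions without it and 2512 short regions touching it.

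The regions came from CUT&RUN, in which an antibody tethers micrococcal nuclease to its target in nuclei and the released DNA is sequenced. The cells were ES-E14TG2a (E14), a male mouse embryonic stem cell line grown with LIF. The growth protocol also describes a LIF+2i medium and does not say which of them these libraries used. There were 28 libraries of 4 targets (H3K27ac, H3K122ac, H3.3 and no primary antibody), with 7 libraries per target. For each target 2 libraries were wildtype, 2 came from 2 clones of H3f3a_AA_H3f3b_WTA, and H3f3a_AA_H3f3b_WTWT, H3f3a_WTWT_H3f3b_AA and H3f3a_WTA_H3f3b_AA had 1 each. H3f3a and H3f3b both encode H3.3, and the series title names the change K122A, an alanine in place of a lysine of H3.3. Only the positions of 1 consensus list for H3.3 and 1 for H3K27ac were used, without a value per library, so genotypes were not compared and read depth is unknown. Which of the 7 libraries per target entered each list is not given in the sources used here. Protein A/G carried the nuclease for H3.3 and protein A for H3K27ac, with different salt when digestion was stopped, so the lists cannot be set against each other as amounts of chromatin.

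H3.3 is a variant of histone H3 that is placed into chromatin outside DNA replication, by the chaperone HIRA at genes and by DAXX with ATRX at repeats. H3K27ac marks active promoters and enhancers. In embryonic stem cells the genes for lineage-specifying transcription factors are mostly held inactive but inducible, with Polycomb complexes and hypomethylated, CpG-rich sequence over their start sites. The H3K27ac list matched the labelled cell type. All 8 stem cell genes checked (Pou5f1, Sox2, Nanog, Esrrb, Zfp42, Klf4, Tfcp2l1 and Dppa5a) had an H3K27ac region within 1 kb of an end and none had a member there. Of 5 genes of fibroblasts or differentiated cells, Thy1 had H3K27ac and Col1a1, Col1a2, Krt18 and Afp did not.

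The sequence beneath the members is shown first for 5 homeobox genes of different families that lie under some of the widest of them. Uncx patterns somites and nervous system, Six3 the forebrain and eye, Dlx2 the ventral forebrain and jaw, Lhx1 the head organizer and kidney, and Hoxa11 the limb and kidney. Each line holds the 250 bases before the annotated start site in the direction of transcription, from RefSeq on GRCm38.p6, which has the coordinates of mm10. Capitals mark each CG dinucleotide.

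Uncx: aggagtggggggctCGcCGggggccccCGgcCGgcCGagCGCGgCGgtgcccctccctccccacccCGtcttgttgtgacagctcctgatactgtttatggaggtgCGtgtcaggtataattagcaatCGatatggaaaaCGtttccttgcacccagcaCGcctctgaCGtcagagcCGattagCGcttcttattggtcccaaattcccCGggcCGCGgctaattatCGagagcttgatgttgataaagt
Six3: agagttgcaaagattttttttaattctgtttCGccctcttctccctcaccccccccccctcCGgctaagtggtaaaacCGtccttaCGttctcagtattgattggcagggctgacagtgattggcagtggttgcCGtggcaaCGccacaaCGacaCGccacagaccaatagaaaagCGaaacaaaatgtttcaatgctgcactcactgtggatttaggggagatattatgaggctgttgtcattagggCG
Dlx2: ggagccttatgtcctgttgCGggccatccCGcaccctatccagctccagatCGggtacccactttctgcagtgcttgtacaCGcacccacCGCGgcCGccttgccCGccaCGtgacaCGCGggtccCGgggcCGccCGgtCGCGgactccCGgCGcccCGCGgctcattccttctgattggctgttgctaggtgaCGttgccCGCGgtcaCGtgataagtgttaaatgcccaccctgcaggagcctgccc
Lhx1: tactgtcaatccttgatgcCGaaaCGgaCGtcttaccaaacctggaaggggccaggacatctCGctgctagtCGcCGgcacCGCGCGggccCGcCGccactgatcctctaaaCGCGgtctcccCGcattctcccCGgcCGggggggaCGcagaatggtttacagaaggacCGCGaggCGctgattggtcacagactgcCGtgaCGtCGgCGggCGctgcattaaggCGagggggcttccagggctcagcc
Hoxa11: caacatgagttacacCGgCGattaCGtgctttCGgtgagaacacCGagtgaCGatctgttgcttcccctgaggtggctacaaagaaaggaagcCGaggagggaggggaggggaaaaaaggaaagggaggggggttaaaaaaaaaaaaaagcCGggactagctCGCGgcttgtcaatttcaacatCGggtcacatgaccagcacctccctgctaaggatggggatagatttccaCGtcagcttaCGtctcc

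The Uncx window lies at chr5:139543648-139543897 on the plus strand, inside the member chr5:139540178-139554108, and holds 20 CG. That of Six3, at chr17:85620584-85620833 on the plus strand, lies inside chr17:85612109-85624151 and holds 10. Dlx2, at chr2:71546755-71547004 on the minus strand, has 24 in the member chr2:71538622-71547384. The Lhx1 window at chr11:84525535-84525784 on the minus strand has 26, inside chr11:84521011-84528468. For Hoxa11 the window at chr6:52245811-52246060 on the minus strand has 13, inside chr6:52242713-52250278. These 5 sequences thus range from moderately to densely CpG-rich, and the whole set of such windows is described further on.

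The members formed a small number of regions but a large share of H3.3 sequence. They were 8.22% of the H3.3 regions on chromosomes 1 to 19 and held 1.36 Mb, which was 34.3% of the sequence in H3.3 regions. The 2362 short regions without H3K27ac held 1.19 Mb. Median member width was 2482 bp with an interquartile range of 1865 to 3537 bp, 165 members reached 3000 bp and 51 reached 5000 bp. Regions just inside the threshold were at Pdgfa (1500 bp), Dbx1 and Ttc6 (1507 bp each), 58672 bp from Lbx1 (1507 bp) and 318 bp from Hoxa13 (1512 bp). Just outside were regions at Gfra1 (1498 bp), 11213 bp from Skida1 (1498 bp), 2532 bp from Insm1 (1492 bp), and at Tmem132e and Dll1 (1486 bp each).

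The share of H3.3 regions without H3K27ac was higher at greater widths. It was 50.1% of 2896 regions under 500 bp, 44.2% of 1521 from 500 to 1000 bp and 52.3% of 457 from 1000 to 1500 bp. Above the threshold it was 78.3% of 175 regions up to 2000 bp (71.4 to 84.2%, an exact 95% interval over regions), 88.6% of 158 up to 3000 bp, 98.3% of 116 up to 5000 bp and 94.4% of 54 beyond. Over all regions of 1500 bp or more it was 87.9% (84.7 to 90.6%), against 48.5% (47.0 to 49.9%) of narrower ones. Both quantities were used to choose the members, so these shares are a description.

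**Figure D1:**
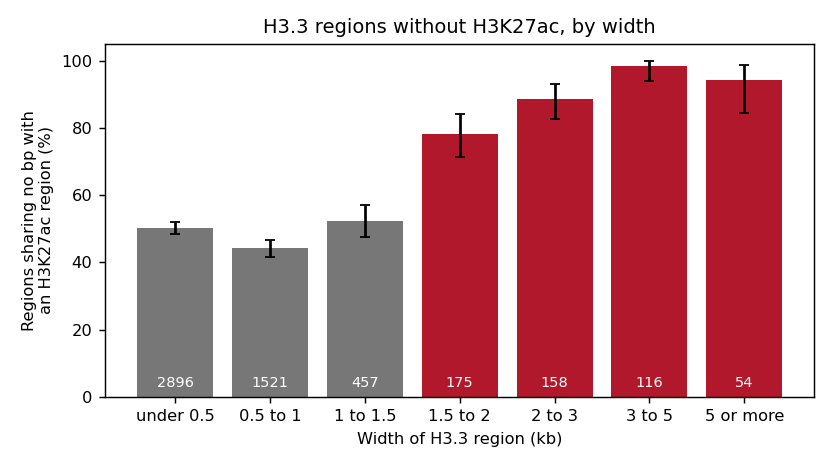
Share of H3.3 regions sharing no base with an H3K27ac region (vertical axis, percent) by width in kb, with red bars for widths that enter the members, the number of regions in each bar and exact 95% intervals over regions. The bars lie between 44.2% and 52.3% below 1.5 kb and between 78.3% and 98.3% above it.

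Most members lay at the ends of protein-coding genes, a term used here for anything up to 1 kb from either end of the gene as annotated. There were 283 such members (64.0%, 59.4 to 68.5%), 98 inside a gene away from its ends (22.2%), 28 that touched only a non-coding gene or its flanks (6.33%) and 33 between genes (7.47%). The share at gene ends was 60.7% (47.3 to 72.9%) for wide regions touching H3K27ac, 55.7% (53.7 to 57.7%) for short regions without it and 59.0% (57.1 to 61.0%) for short regions touching it. Only the interval of the short regions without H3K27ac lies apart from that of the members. Their median width was 385 bp, and wider regions reach a gene end more readily, which was not separated from this difference. Members at gene ends had a median width of 2696 bp, those inside genes 2478 bp and those between genes 2091 bp.

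The kinds of genes differed far more between the classes than the location did. A member was assigned to the homeobox group if it touched the body or 1 kb flanks of a gene on 9 lists of patterning homeobox genes, whose DNA-binding factors specify position and cell type in the embryo. This held for 148 members, 33.5% (29.1 to 38.1%). The interval counts members as independent, although many are close neighbours. With members less than 10 kb apart joined into 1 locus, 83 of 303 loci (27.4%) touched such a gene. A further 72 members (16.3%) touched a gene on another list of transcription factors, 31 (7.01%) a gene on a list of signalling, receptor, chromatin or cell cycle genes, 130 (29.4%) only genes on no list, and 61 (13.8%) no protein-coding gene. Homeobox genes were touched by 137 of 2362 short regions without H3K27ac (interval 4.89 to 6.82%), by 3 of 2512 short regions with it and by 0 of 61 wide regions with it, which allows up to 5.87%.

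Homeobox genes took a larger share of the wider members. They were touched by 26 of 137 members under 2000 bp (interval 12.8 to 26.6%), 40 of 140 up to 3000 bp (28.6%), 50 of 114 up to 5000 bp (43.9%) and 32 of 51 beyond (62.7%, 48.1 to 75.9%). With all listed transcription factors the shares were 38.0%, 41.4%, 63.2% and 74.5%. Median width was 3151 bp for homeobox members, 2436 bp for those at other listed transcription factors and 2234 bp for those at genes on no list. Wider regions reach more genes, which was not separated from this relation. Of the 25 widest members, all of 6764 bp or more, 19 were in the homeobox group and 1 at another listed transcription factor gene, 22 were at a gene end, and their nearest H3K27ac regions lay 13186 to 361189 bp away.

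In terms of genes, 276 of 20665 protein-coding genes on chromosomes 1 to 19 had a member at an end, which is 1.34% and the background for every list that follows. With members inside the gene the number was 329. An H3.3 region of any kind was at an end of 16.8% of these genes and an H3K27ac region at an end of 40.6%. Of the 168 patterning homeobox genes, 101 had a member at an end (60.1%, 52.3 to 67.6%) and 136 had any H3.3 region. Over all 393 listed transcription factor genes it was 146 (37.2%, 32.4 to 42.1%). The median widest member was 3605 bp for the 101 homeobox genes and 2795 bp for all 276 genes. Neighbouring genes can share a member, so the genes are not independent of each other. The lists were assembled with earlier results of these data known, and the shares are therefore descriptions without a test.

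Hox genes, which set position along the body axis, had the largest share of any list. A member lay at an end of 34 of 39 (87.2%, 72.6 to 95.7%), no H3K27ac region lay at any of the 39, and 38 had some H3.3 region. Hoxb5 and Hoxb6 shared a member of 8656 bp at chr11:96297239-96305894, and Hoxb7 and Hoxb8 one of 7823 bp at chr11:96282281-96290103. The 5 Hox genes without a member were Hoxa4, whose widest H3.3 region at an end was 398 bp, Hoxc13 (1107 bp), Hoxd1 (260 bp), Hoxd8 (787 bp) and Hoxc4, which had none at an end.

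The 4 Hox clusters together held 45 members, or 10.2% of all, and 0 of the H3K27ac regions. Members covered 53.6 kb of the 107.5 kb Hoxa cluster window (49.9%), in 15 regions. They covered 36.3% of the 117.7 kb of Hoxc with 9 members, 27.3% of the 98.92 kb of Hoxd with 8, and 24.8% of the 175.9 kb of Hoxb with 13. Hoxb has the longest window because Hoxb13 stands apart from the other Hoxb genes. Among the 81 H3.3 regions in the clusters, the 36 that were no members were all short, since none touched H3K27ac. Several Hox genes lay wholly inside a member, namely Hoxa6, Hoxa7, Hoxb2, Hoxc11, Hoxc12 and Hoxd9.

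**Figure D2:**
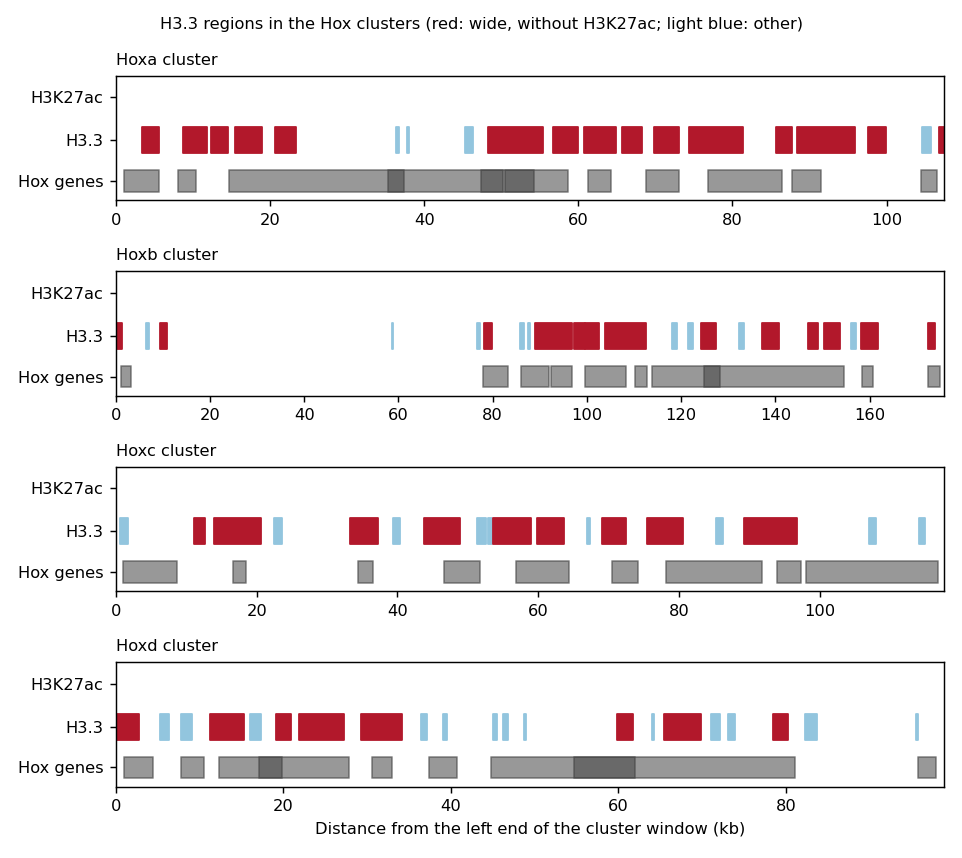
Map of the 4 Hox clusters, 1 panel each, with distance from the left end of the cluster window in kb on the horizontal axis and rows for H3K27ac regions, H3.3 regions (red for members, light blue for other H3.3 regions) and Hox genes (grey). The H3K27ac rows are empty in every panel, and members fill 49.9% of the Hoxa window and 24.8% of the Hoxb window.

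Among the other homeobox families the share with a member was lower but still far above the background. Pax genes encode paired-domain factors of eye, neural tube and muscle, and 7 of 9 had a member at an end, among them Pax7 (4661 bp), Pax1 (3970 bp), Pax6 (3958 bp) and Pax9 (3828 bp). These widths are of members at an end. The widest member in the body was wider at Pax6 (6764 bp) and at Pax7 (chr4:139820850-139830016). Pax8 had an H3.3 region of 1177 bp and Pax4, a pancreatic factor, had none at an end. The sine oculis family of eye, ear and kidney had a member at 4 of 6 genes, including 12043 bp at Six3, 4244 bp at Six2 and 1806 bp at Six6. Six4 differed from these, since its H3.3 region was short (1082 bp) and H3K27ac covered 18263 bp in 1 region there.

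Nkx genes, which act in forebrain, heart and gut, had a member in 7 of 14. The widest members at an end were at Nkx2-3 (7992 bp, spanning the whole gene) and the lung and thyroid factor Nkx2-1 (3983 bp). The beta cell and motor neuron factor Nkx6-1 (3796 bp) and Nkx1-1 (2771 bp) followed. Inside Nkx2-2, away from its ends, lay members of 6507 and 5919 bp. Nkx2-4 and Nkx2-6 were among those with no H3.3 region at an end. Dlx genes had 3 of 6, which were Dlx2 (8763 bp), Dlx5 (4393 bp) and Dlx1 (3880 bp), and Iroquois genes 3 of 6, which were Irx3 (4800 bp), Irx5 (1901 bp) and Irx1 (1748 bp). LIM homeobox genes had 6 of 12, including Lhx5 (10360 bp), Lhx1 (7458 bp), the limb and kidney factor Lmx1b (4595 bp) and Lhx9 (3072 bp). None of the genes of these 4 lists had H3K27ac at an end.

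POU class 3 and 4 genes, neural factors, had a member in 2 of 6 (Pou3f2 with 5018 bp and Pou3f3 with 2809 bp), while the other 4 had H3.3 regions of 214 to 1161 bp. The remaining 70 patterning homeobox genes had 35 with a member and 5 with H3K27ac at an end, but no gene had both. Besides Uncx these were led by Otx1 (11333 bp), the hindlimb factor Pitx1 (7830 bp) and the craniofacial factor Msx1 (7198 bp). Alx4, Barhl1 and Cdx1 were among the 19 with no H3.3 region at an end, although Alx4 had 1 member in its body.

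The counts for these and all other lists are of gene ends, which misses genes with members only in their bodies. Widths given for listed genes are likewise of the widest member at an end, unless the body is named. Lhx4, a pituitary and motor neuron factor, had no H3.3 region at an end but 2 members inside the gene, of 2773 and 2259 bp. Lhx2, of eye and forebrain, had a region of 571 bp at an end and 3 members in its body. These genes were picked out after their values were seen.

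**Figure D3:**
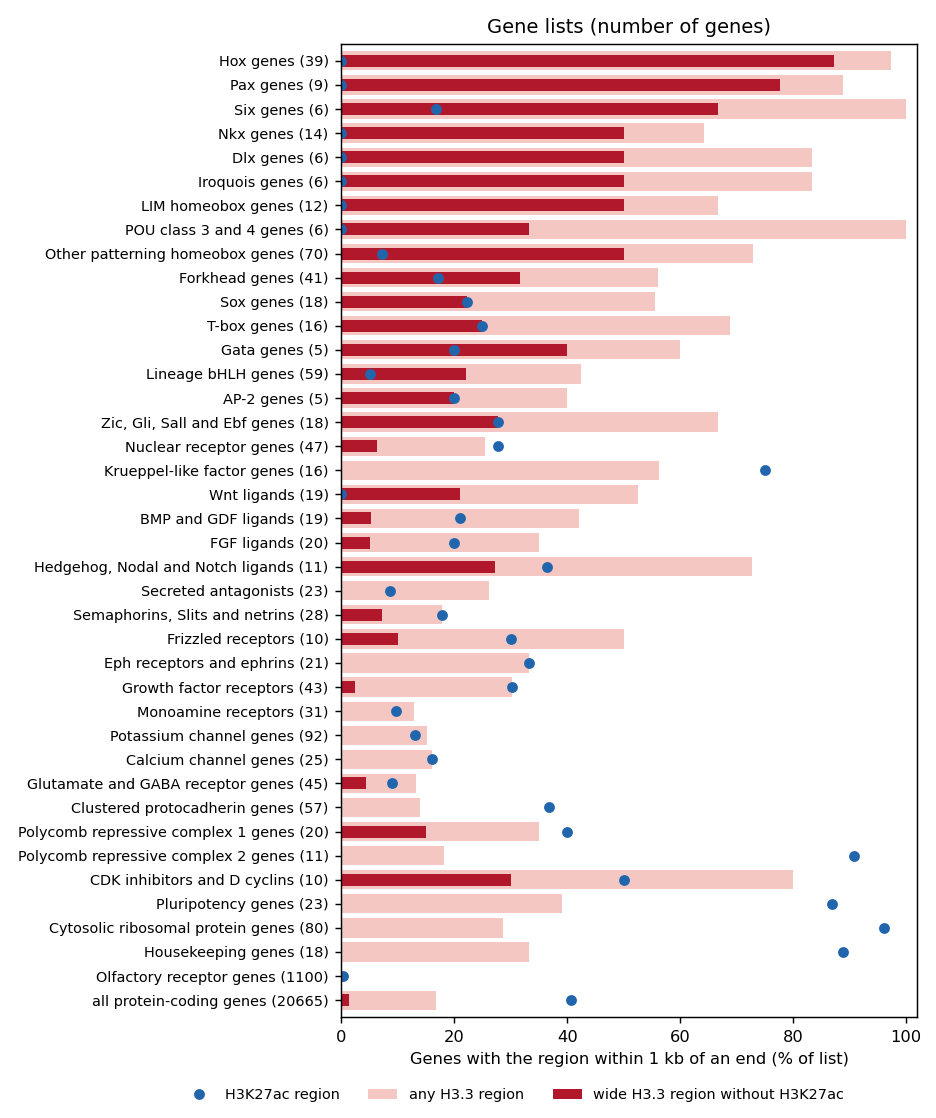
Share of genes on each list (horizontal axis, percent, with the number of genes in brackets) that have within 1 kb of an end a member (red bar), any H3.3 region (light bar) or an H3K27ac region (blue point). Homeobox lists stand at the top with members at 33.3% to 87.2% of genes, and the ribosomal protein, housekeeping and olfactory receptor lists stand at the bottom with 0%, beside 1.34% of all protein-coding genes.

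Other transcription factor families had members in smaller shares. Of 41 forkhead genes 13 had one (31.7%, 18.1 to 48.1%), led by the endoderm factor Foxa2 (3645 bp), Foxf1 and Foxf2 of the gut and lung mesenchyme (3488 and 3392 bp) and Foxd2 (3246 bp). Foxd3, Foxh1 and Foxi1 had no H3.3 region at an end. Lineage bHLH genes had 13 of 59 (22.0%), with the heart and trophoblast factor Hand1 (5620 bp), the oligodendrocyte and motor neuron factor Olig2 (4543 bp), the blood factor Tal1 (3966 bp) and the proneural factor Neurog2 (3164 bp) at the top. Hand1 and Olig2 lay wholly inside their members, and Ascl3, Ascl4 and Ascl5 had no H3.3 region at an end.

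Sox genes had a member in 4 of 18, namely Sox14 (4670 bp), the endoderm factor Sox17 (2186 bp), the cartilage and testis factor Sox9 (1710 bp) and the neural factor Sox1 (1589 bp). Sox2, which stem cells use, had an H3K27ac region of 2081 bp and no H3.3 region at an end. T-box genes had 4 of 16, with Tbx1 of the pharynx and heart (4352 bp), Eomes of the primitive streak and trophoblast (3867 bp), Tbx2 (2942 bp) and the mesoderm factor T (1788 bp). Tbx3 had an H3.3 region of 2347 bp that is no member because it touched H3K27ac. Each of these families thus holds genes with a member and a gene with H3K27ac and no member.

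Gata2 of blood (5100 bp) and Gata6 of endoderm (4249 bp) were the Gata genes with a member, of 5. Gata4 had no H3.3 region at its ends and 1 member in its body. Gata3 had an H3K27ac region of 307 bp and no H3.3 region at its ends, but 2 members in its body, of 3872 and 3268 bp. Among AP-2 genes 1 of 5 had a member at an end, Tfap2a of the neural crest (10288 bp). Of 18 Zic, Gli, Sall and Ebf genes 5 had one, among them Zic2 (6252 bp), Ebf3 (5660 bp), Ebf2 (3801 bp) and Zic1 (2409 bp), and Gli1 and Gli3, which carry hedgehog signals, had no H3.3 region at an end.

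Nuclear receptor genes and Krueppel-like factor genes stood lowest among the transcription factors. Members were found at an end of 3 of 47 nuclear receptor genes (6.38%, 1.34 to 17.5%). These were Nr4a3 (3849 bp), Nr2e1 of neural stem cells (2862 bp) and Nr2f2 (2218 bp), while Nr4a2 had a member of 2836 bp only in its body. Esr1, Esr2 and Esrrb had no H3.3 region at an end. At Krueppel-like factor genes there was a member at 0 of 16, which allows up to 20.6%, although 9 had some H3.3 region and 12 had H3K27ac. Klf12 and Klf16 came nearest in width, at 1356 and 1407 bp.

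Signalling ligands had members at an end of 11 of 120 genes (9.17%, 4.67 to 15.8%). Of 19 Wnt genes 4 had one, namely Wnt10b (4183 bp) and Wnt1 (3757 bp), which are neighbours on chromosome 15, Wnt10a (2702 bp) and Wnt11 (2398 bp), and none of the 19 had H3K27ac at an end. Hedgehog, Nodal and Notch ligands had 3 of 11, which were the patterning signal Shh (4273 bp), Ihh of cartilage (2485 bp) and the vascular Notch ligand Dll4 (2263 bp). The remaining ligands with a member were Sema6a (3404 bp), Sema5b (2931 bp), Gdf6 (2224 bp) and Fgf8 (2203 bp). None of 23 secreted antagonists had one, which allows up to 14.8%. These counts are of gene ends. Dhh (5068 bp), Wnt6 (3180 bp), Wnt7b (2197 bp) and Fgf9 (1552 bp) were among the ligand genes with a member only in the body.

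Receptors and channels were close to the background, with members at an end of 4 of 267 genes (1.50%, 0.410 to 3.79%) beside 1.34% of all genes. These were the platelet-derived growth factor receptor gene Pdgfra (3531 bp at chr5:75148175-75151705), the glutamate receptor genes Grid1 (1975 bp) and Grin1 (1840 bp), and the Wnt receptor gene Fzd8 (1576 bp). The member at Grin1 covers 2.15% of that gene and 97.7% of its neighbour Lrrc26. Potassium channel genes had 0 of 92, Eph receptors and ephrins 0 of 21, monoamine receptors 0 of 31 and calcium channel genes 0 of 25. The upper limits for these are 3.93%, 16.1%, 11.2% and 13.7%. Clustered protocadherin genes had 0 of 57. All these counts are of gene ends, and the ephrin gene Efna3 had a member of 1625 bp in its body.

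Chromatin and cell cycle genes contributed a few wide members. Of 20 Polycomb repressive complex 1 genes 3 had a member, among them Cbx8 (10710 bp, spanning the whole gene) and Bmi1 (2883 bp), and 8 others had H3K27ac at an end. Complex 2 genes had a member at 0 of 11, which allows up to 28.5%, and H3K27ac at 10. The interval for complex 1 genes is 3.21 to 37.9%, so a difference between the complexes is not shown. Among CDK inhibitors and D cyclins, which brake or drive entry into the cell cycle, members lay at Ccnd2 (5478 bp), Cdkn2c (2010 bp) and Cdkn2a (1726 bp), 3 of 10.

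Genes that stem cells use mostly had H3K27ac at an end. It was there at 20 of 23 pluripotency genes, 77 of 80 cytosolic ribosomal protein genes and 16 of 18 housekeeping genes. No member lay at an end of any of them, which allows up to 14.8%, 4.51% and 18.5%. These limits lie above the 1.34% of all genes, so a share below the background is not shown. The rule also bars members that share a base with H3K27ac. H3.3 regions that were no members were found at 9, 23 and 6. Olfactory receptor genes, which are silent outside the nose, had 0 of 1100 with a member, 1 with any H3.3 region and 3 with H3K27ac, so they lacked both marks.

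Many members lay at genes outside the lists. There were 136 such genes with a member in the body or flanks, 109 of them at an end. Several encode transcription factors, such as Osr2 (8516 bp, chr15:35294603-35303118), Zfp503 (7487 bp), Egr3 (6300 bp), Prdm12 (5400 bp), Rfx4 (5381 bp) and Sp5 (5219 bp), and Sfmbt2 (5690 bp) encodes a Polycomb-associated protein. Others are neighbours of a listed gene, such as Ehbp1 beside Otx1 and Catsper3 beside Pitx1, which no member covers. Of 14 Prdm genes, 4 had a member in the body or flanks, all at an end (Prdm12, Prdm6, Prdm16 and Prdm8). The lists do not hold every homeobox gene, since Msx3 (1702 bp) is also among the unlisted genes. These names were chosen after their widths were seen.

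H3K27ac was rare at the ends of genes with a member. Only 9 of the 276 had an H3K27ac region at any end (3.26%, 1.50 to 6.10%), among them Ehbp1, Gprc5c, Tfap2a, Dnajc22, Mdga1, Esrp1, Rnf220 and Trim54. Among 1355 genes that had a short H3.3 region without H3K27ac at an end and no member, 482 had H3K27ac at an end (35.6%), as did 35.2% of 17195 genes with no H3.3 region there. The rule forbids H3K27ac under the member itself but not at the other end of the gene, and part of the low share is fixed by it.

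H3K27ac regions also lay farther from members than from short H3.3 regions without H3K27ac. The nearest H3K27ac region was a median of 67832 bp away (interquartile range 26837 to 153830 bp), against 18232 bp (3780 to 64264 bp). One within 10 kb was found for 36 members (8.14%, 5.77 to 11.1%) and for 39.2% of the short regions (37.2 to 41.2%). Within 100 kb the shares were 60.4% and 82.1%. Homeobox members were a median of 106925 bp away and members at genes on no list 37068 bp. Distance to H3K27ac is close to what the rule used, so this is a description.

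The extremes were members at single genes far from any H3K27ac region and members beside one. Farthest from H3K27ac were members at Irx1 (1138482 bp), the protocadherin gene Pcdh7 (1079888 bp), Tfap2b (940657 bp) and Gm36722 (774104 bp), and one 10775 bp from Nr2f1 (751001 bp). Closest were members at Dnajc22, which abutted an H3K27ac region, Esrp1 (161 bp), Cdk6 (326 bp), Pdgfa (1340 bp) and Csf2ra (1448 bp).

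**Figure D4:**
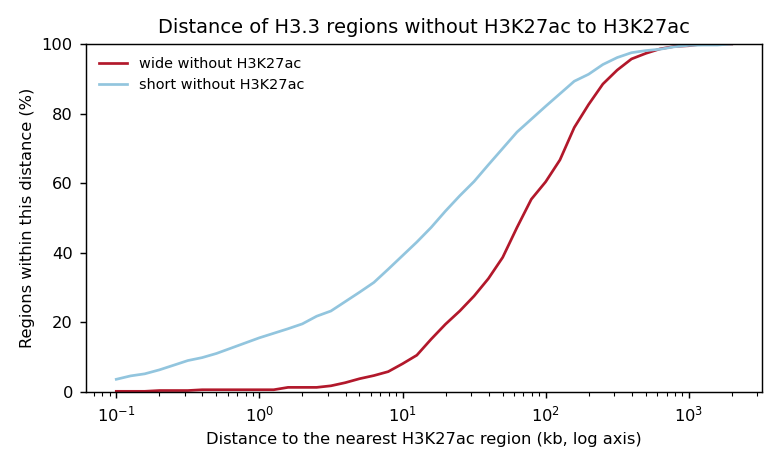
Cumulative share of regions (vertical axis, percent) with an H3K27ac region within the distance on the horizontal axis (kb, log axis), for the 442 members (red) and the 2362 short H3.3 regions without H3K27ac (light blue). The red curve lies lower up to distances well beyond 100 kb, with 8.14% against 39.2% at 10 kb and 60.4% against 82.1% at 100 kb.

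Members were gathered together along the chromosome. Another H3.3 region lay within 10 kb of 356 members (80.5%, 76.5 to 84.1%), against 39.3% of wide regions touching H3K27ac, 40.9% of short regions without it and 20.9% of short regions touching it. Joining members less than 10 kb apart gave 303 loci, of which 214 held 1 member, 65 held 2 and 24 held 3 or more. None of the 89 loci with several members contained any H3K27ac sequence between its outermost members. The rule bars H3K27ac from the members themselves, so only the gaps, each under 10 kb, could hold any. Gaps between other H3.3 regions were not compared. Homeobox genes were touched in 39 of the 214 loci with 1 member, 26 of the 65 with 2 and 18 of the 24 with 3 or more, and listed transcription factors in 34.6%, 63.1% and 95.8%. Loci with more members span more sequence and so reach more genes, which was not separated from this relation. Several of the loci with 3 or more members are parts of the Hox clusters.

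Outside the Hox clusters the loci with most members were at single developmental genes. At Pax6, a master regulator of the eye, 4 members covered 16191 bp of a locus of 22666 bp (chr2:105666504-105689169). Pax2 of kidney and midbrain (16179 bp in members), Pou3f2 (12352 bp), Tbx2 (11479 bp) and Nr2f2 of veins and heart (7696 bp) also had loci of 4. Along a single gene, Hoxa3 was touched by 5 members, Pax6 and Hoxb3 by 4, and Nkx2-2 and Pax2 by 3. Nkx2-2, a ventral neural tube factor, had 76.9% of its length in members, and Pax2, a much longer gene, 14.0%. In total 17 genes lay wholly inside a member, 13 of them homeobox genes, and 88 had at least 50% of their length in members.

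Start sites were taken from the promoter table, which is incomplete and has none for chromosome 18. It placed 223 start sites of 190 genes within 1 kb of a member. H3.3 regions of any class covered 81.2% of these start sites, 34.1% of positions 2 kb upstream and 44.4% of positions 2 kb downstream. At 5 kb the shares were 13.5% upstream and 21.1% downstream. On average 1926 bp of the 5 kb before the start and 2249 bp of the 5 kb after it lay in H3.3 regions. The coverage thus extended to both sides of the start. Some of these genes, such as Uncx (4315 bp), are shorter than 5 kb, so the downstream stretch can run past the gene. Around start sites beside wide regions touching H3K27ac the averages were 1227 bp before and 883 bp after, the reverse order. Short regions gave 319 and 344 bp without H3K27ac and 328 and 252 bp with it. The greater width of members than of short regions is fixed by the rule, but the position relative to the start is not. Wide regions touching H3K27ac met the same width threshold and had a median width of 1824 bp, against 2482 bp for members.

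**Figure D5:**
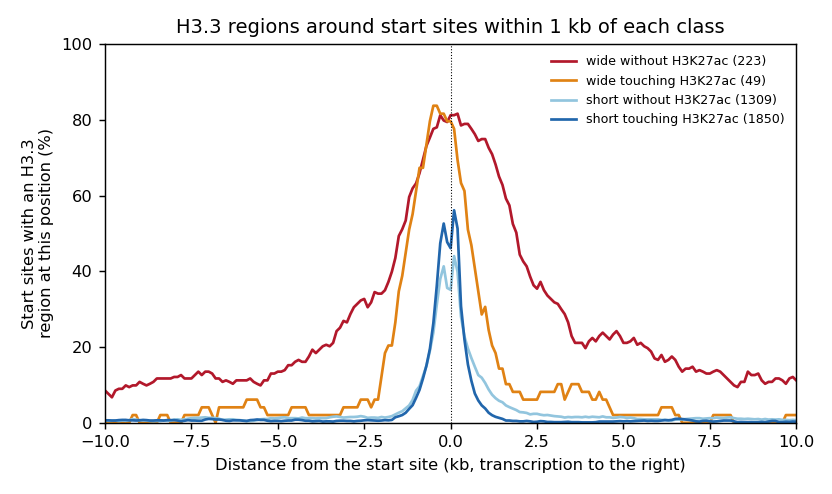
Share of start sites (vertical axis, percent) with an H3.3 region at each distance from the start (horizontal axis, kb, transcription to the right), for start sites within 1 kb of members (red, 223), of wide regions touching H3K27ac (orange, 49), of short regions without H3K27ac (light blue, 1309) and of short regions touching it (dark blue, 1850). The red line reaches 81.2% at the start and is higher at 2 kb downstream (44.4%) than upstream (34.1%), while the orange line is higher upstream.

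The promoter windows under members were rich in CpG, like those of other H3.3 and H3K27ac regions. Windows of 300 bases, from 250 before to 50 after the start, touched a member in 194 cases, from 168 genes. Their median ratio of observed to expected CpG was 0.740 (interquartile range 0.607 to 0.839), with a median GC content of 62.7%. The median ratio was 0.803 for windows touching a wide region with H3K27ac, 0.765 for a short region without it and 0.802 for a short region touching it. It was 0.735 for H3K27ac without H3.3 and 0.414 for windows with neither. The interquartile ranges overlap. That of windows with neither was wide (0.175 to 0.782) and also reached into the range of the members. The table has a window for only 71.0% of the 276 genes with a member at an end, so these values describe the windows and not the genes.

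Short motifs were searched on both strands in these windows. GGGCGG, the GC box, was in 62.9% of the 194 windows, against 47.0% of all windows but 83.3% of those at wide regions touching H3K27ac, 74.9% at short regions without it and 67.8% at short regions touching it. Member windows thus had the lowest share among the H3.3 classes. CCAAT was in 43.8% of member windows, in 52.4%, 44.6% and 43.8% of the other H3.3 classes in the same order, and in 38.1% of all windows. TATAA was in 17.0% of member windows, in 7.14%, 12.8% and 10.4% of the other classes, and in 21.9% of all windows. TAATTA, the core preferred by many homeodomains, was in 11 of 194 (5.67%), in 0 of 42 windows at wide regions touching H3K27ac, in 8 of 838 at short regions without it (0.955%), in 26 of 1416 at short regions touching it (1.84%) and in 4.48% of all windows. The Uncx sequence printed above contains ataattagc. The motifs share few letters and a match is a description of the letters only.

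Non-coding genes beside the members were mostly partners of the same transcription factor genes. A member lay at an end of 145 of 12408 lncRNA genes (1.17%, 0.987 to 1.37%). Of the 145, 99 (68.3%) lay within 10 kb of a listed transcription factor gene, as did 2.47% of all lncRNA genes. They include the divergent or antisense transcripts Six3os1, Lhx1os, Hoxa11os, Pax6os1 and Nkx2-2os, named after their neighbours. Such a pair shares its member, so the lncRNA and the coding gene cannot be told apart as its place.

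Few microRNA hairpins lay in members, 5 of 919 (0.544%), while 20 lay in an H3.3 region of any kind and 154 in an H3K27ac region. Mature sequences are given for 1 arm of 4 of them, since these are the RNAs that the covered loci can produce, from RefSeq with the seed (bases 2 to 8) in capitals.

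miR-196b-5p: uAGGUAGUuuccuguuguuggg
miR-9-5p: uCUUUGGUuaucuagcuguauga
miR-212-3p: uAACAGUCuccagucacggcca
miR-132-3p: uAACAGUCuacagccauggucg

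Mir196b lies in a member of 6922 bp over Hoxa10 (chr6:52228790-52235711), and miR-196 targets Hox transcripts. Mir9-3, a copy of the gene for the neural miR-9, lies in a member of 3489 bp that touches no protein-coding gene (chr7:79504492-79507980). Mir212 and Mir132 share a member of 3743 bp that reaches Hic1 (chr11:75169984-75173726), and Mir132 lies only partly inside. Their 3p arms share the seed AACAGUC, while the other seeds printed differ from it and from each other.

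Members were spread over all 19 autosomes with uneven numbers. Chromosome 2 had the most, 56, and chromosome 17 the fewest, 9. Per 100 protein-coding genes this was 3.14 and 0.850, and chromosome 6 had 3.02. Just 5 members lay more than 100 kb from a protein-coding gene. Among them were 3 on chromosome 9, at chr9:3004084-3005942, chr9:3024304-3027789 and chr9:3029710-3032712, at least 302518 bp from Alkbh8. The remaining members were at chr14:19415846-19419630, 114069 bp from Gm2244, and at chr17:85799256-85800921, 111001 bp from Six2. Whether any of these 5 reflects repeats or background signal was not tested.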

How the data were processed

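The deposited values are positions only. The authors gave the coordinates of consensus regions for H3.3 and H3K27ac, with no score or p-value. Tools named per the submitters' processing notes are Bowtie2, SAMtools, deepTools and MACS2, and the build is mm10. No versions or roles are stated for them. Starts were raised by 1. Regions were intersected (1 bp or more) with each other and with RefSeq genes, start sites and microRNAs of GRCm38.p6 in Python 3.11.15, numpy 2.4.6, pandas 2.3.3 and scipy 1.17.1. Columns of other samples numbered 0. Intervals are exact (Clopper-Pearson, 95%) and reflect only the number of regions or genes counted, taken as independent of each other. No test was run, since no value per library was used. The interval code, tested on simulated data, gave 0 wrong answers in 1000 queries.

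The members and lists were chosen with earlier results of these data known. Genes were named by rule: the 25 widest members, for each of 39 lists up to 4 genes with the widest member and up to 3 without H3.3 (alphabetical), the 5 regions on each side of 1500 bp, the 5 genes touched by the most members, and the 5 extremes of distance. Names beyond it were chosen after their values were seen, and some genes the rule takes are not reported here. Promoters of chromosome 18 were not used here.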

Additional observations from a re-analysis of the deposited data

Results flagged for a closer look

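Wide H3.3 regions without H3K27ac were also listed outside chromosomes 1 to 19, which the rule does not cover. The X chromosome held 4, of its 47 H3.3 regions. Of these, 3 touched Bcor, a gene for a transcriptional corepressor of a variant Polycomb repressive complex 1, with widths of 4306, 3017 and 2089 bp. The fourth touched its relative Bcorl1 (1751 bp). The Y chromosome held 1 of 2218 bp, the mitochondrial genome 1 of 5616 bp and unplaced scaffolds 1 of 1675 bp. They entered no comparison above, and no control regions were used beside them. Whether any of them, the mitochondrial region included, reflects background signal was not tested. The libraries without primary antibody were not used here.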

How the results depend on the processing

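The count of members moved with the width threshold, to 681 at 1000 bp and 165 at 3000 bp, and stayed within 1.5 times of 442 under 7 of 9 alternatives. The share of members at a gene end was 74.5% at 3000 bp, 55.9% with a window of 500 bp, 76.5% with 2.5 kb, 72.4% with genes of all biotypes and 74.9% with members closer than 10 kb counted as 1 locus, an alternative added after seeing the data. Under the 7 others it stayed inside the interval of the main value. The share of protein-coding genes with a member was 1.91% at 1000 bp, 0.948% at 2000 bp, 0.605% at 3000 bp, 1.58% with H3.3 regions closer than 1 kb joined and 1.51% with the 2.5 kb window. For homeobox genes it was 49.4% at 2000 bp and 39.3% at 3000 bp, and within its interval under 8 of 10 alternatives. Requiring no H3K27ac within 1 or 5 kb, or another overlap or H3K27ac width, moved none of the 4 results beyond its interval or 1.5 times. The comparison of CpG ratios over genes is void, since only 71.0% of genes with a member had a window, against the 80% required, and its alternatives were not run. Depth is unknown and no library could be left out. No paired analysis was possible because the lists carry no value per library.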
